A study of Mus musculus with 20 samples.

Results

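The genes described here code for the machinery that forms, moves, tethers and sorts transport vesicles between the membranes of a cell. They were chosen by a rule on names, with earlier results of these data known. Array probes matched with a single gene symbol of the Rab, Arf or Arl type followed by a digit, or starting with Vps or Snx. Symbols starting with Copa to Copz for the COPI coat, or with Sec22, Sec23, Sec24 or Sec61, matched too. So did those naming a beta, mu or sigma subunit of the adaptor complexes AP-1, AP-2 and AP-3. Of the 15245 probes on the array, 147 probes of 113 genes matched. A member also needed a value on at least 2 arrays in every brain region, which left 103 genes with 131 probes, out of 6327 named genes and 12356 probes of the whole series that met the same condition. The other 16 matching probes were too often empty, and 10 genes were lost with them, among them Rab17, Rab20, Rab29, Rab3d, Copg1, Arl3 and Snx3.

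The 20 cDNA arrays set brain RNA of mice with a null mutation against a pool of wild-type brain RNA, matched by region and, per the labels, amplified. Every region had 5 arrays, 2 of them with swapped dyes, and the regions sampled were cerebellum, cortex, brain stem-diencephalon and hippocampus. The sources used here do not give strain, age or the nature of the null allele. All values below are log ratios of null over wild type, read as log2. Neither the order of the channels nor the base of the log is stated in those sources, so the direction is likely only, and under the opposite order each sign is reversed.

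Rab and Arf proteins are small GTPases that switch between an active form on a membrane and an inactive form in the cytosol, and each marks its own compartment. Coats bend the membrane into a vesicle: COPII for export from the endoplasmic reticulum (ER), COPI for transport within the Golgi and back to the ER, and clathrin with the adaptors AP-1 and AP-2 at the trans-Golgi network, endosomes and plasma membrane. Vps proteins, named for yeast mutants in vacuolar protein sorting, and sorting nexins, which bind phosphoinositides, build the tethers and sorting complexes of endosomes and lysosomes, organelles whose lumen is acid. In neurons the same machinery recycles synaptic vesicles and receptors.

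Arrays of a region that shared a number in their label were averaged as 1 replicate, which gave 4 replicates in cortex, where an unnumbered swapped array made up the fourth, and 3 in each other region. Whether that array repeats the extract of a numbered cortex array is not given in the labels. If it does, the counts of replicates and the p-values below rest on 1 replicate too many. Nothing in the labels says that numbers mark separate mice, so p-values measure no more than the spread among these arrays, and that spread may be technical. One swapped array lies nearly unchanged under cerebellum and under brain stem-diencephalon (correlation 0.9952 over 6748 probes, against at most 0.743 for the other of the 190 pairs), and it was left out of both, so that 18 arrays and 13 replicates entered the fit. The arrays of number 1 stood apart from the others in one respect. Eif2s3y, a gene of the Y chromosome, lay between -1.36 and -0.437 on the 6 arrays of number 1 with a value, and between 0.935 and 1.64 on the 11 others used. Neither probe of Xist, a gene of the X chromosome, parted these arrays. Probe 378 lay between -0.14 and 0.144 on arrays of number 1 and between 0.026 and 0.508 on the others used. For probe 6786 these ranges were -0.353 to 0.27 and -0.281 to 0.443. Of the marker genes of neurons, glia, vessels and blood that were measured, Hbb-b1 of red cells rose in the mean over regions by 0.56, while Pecam1 of vessels and Tubb3 of neurons fell by 0.44 and 0.63. Those of myelin (Mbp), astrocytes (Aldoc, Slc1a3), microglia (C1qa, C1qb, C1qc) and choroid plexus (Ttr) and the neuronal Nefl did not pass the threshold. Whether sex or the makeup of the tissue had a part in the results below was not tested. In bulk tissue, fewer cells of a type and less RNA per cell cannot be told apart.

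The mean of the 4 regional ratios asked which trafficking genes differed between null and wild-type brain as a whole. It was fitted with a dye term, so it can differ from the plain mean of a probe's replicates, also in sign. Rab5a, Arf1, Vps50, Rab11fip2, Snx10, Rab3b, Vps41, Arl1, Snx2, Snx8 and Vps11 rose in null brain, and Rab11a, Rab13, Sec61a1, Ap3b2, Rab12 and Rab27a fell. Read as log2, these changes lay between 1.15-fold and 1.40-fold, and none of the 131 probes reached 1.5-fold. If the deposited values are natural logs, 3 probes did, the highest at 1.63-fold. In counts, 20 member probes (15.3%) passed an adjusted p of 0.05 in limma's moderated test, against 13.5% of all 12337 probes that could be tested, so the members were called at about the rate of the array. The 13 probes that rose and the 7 that fell stand against 6.9% and 6.56% of all probes. At an unadjusted p under 0.05 there were 39 member probes (29.8%), against 31.1% of all. In 19 of the 20 called probes the 4 regions had one sign, in Rab12 they did not, and 5 of the 20 had one sign in every replicate with a value. The median ratio of the members was 0.05 on the log2 scale, with 84 of 131 above 0 (64.1%), against 0.01 and 51.8% for all probes.

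Few of these calls stood when certain single replicates were left out. Without cortex replicate 4, the unnumbered swapped array, 1 of the 131 probes was called (Snx2) and 1.23% of all probes, and without cerebellum replicate 2 there were 3 (Rab11a, Snx2 and Vps41) and 2.04% of all. The median SE of the members' means was 0.0951 without cortex replicate 4 and 0.0853 without cerebellum replicate 2, against 0.0725 with all replicates. Cortex replicate 4 is the only replicate made of a swapped array alone. Cerebellum replicate 2 is the only cerebellum replicate with a swapped array in the fit. The dye term, and with it the mean, is held less firmly without either. Its part in the lost calls was not tested. Every called probe kept its sign in all the fits run. With the replicate number as a random block in the model, the median SE was 0.0838 and 14 of the 20 stayed called. Vps11, Ap3b2, Rab12, Rab3b, Rab27a and Snx10 lost the call. With the number as a fixed block the median SE was 0.0621, and 19 of the 20 stayed called. Unless a block is named, the p-values given for single probes are from the fit without one, which treats all replicates as independent. In 2 of the called probes leaving out a replicate moved the mean by over 1.5 times: without cortex replicate 4, Rab11fip2 read 0.15 ± 0.12 (adjusted p = 0.525 by limma), against 0.38, and Rab13 read -0.21 ± 0.12 (adjusted p = 0.37), against -0.40.

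**Figure D1:**
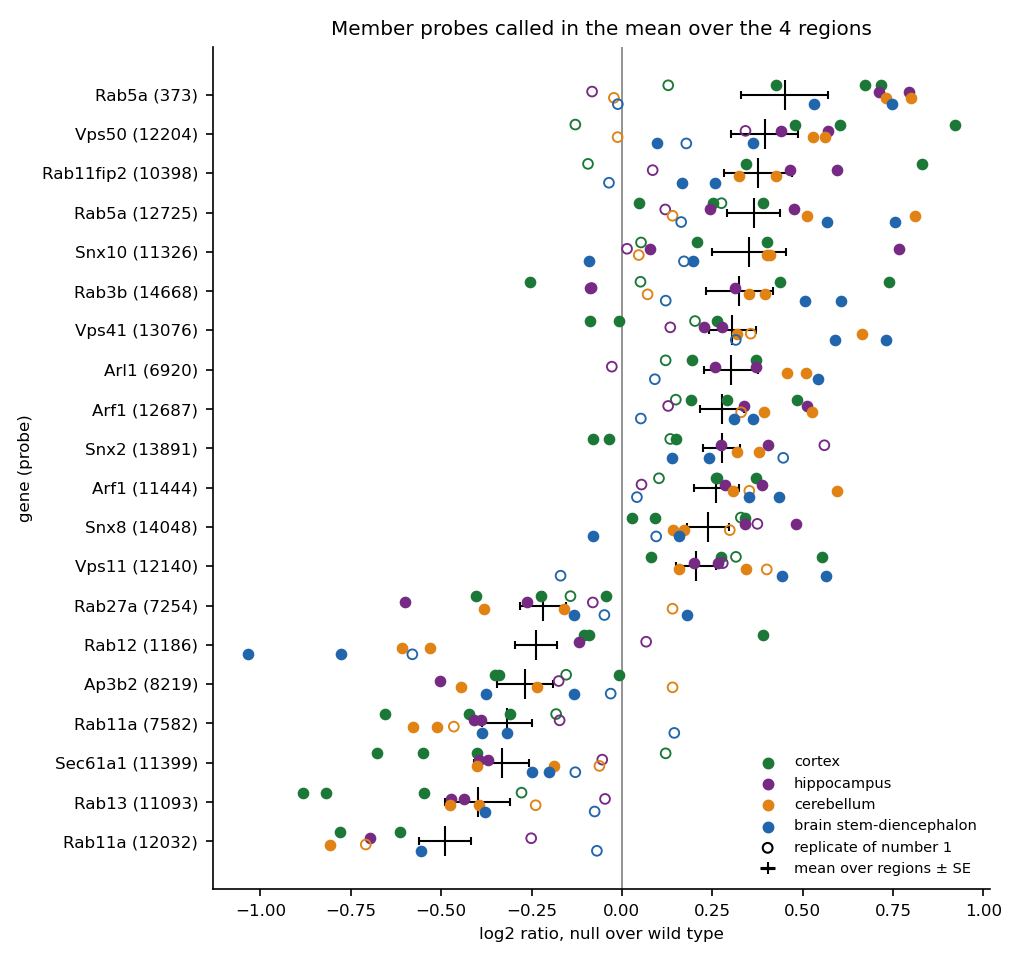
The 20 member probes called in the mean over regions, with gene and probe number on the vertical axis and the log2 ratio of null over wild type on the horizontal axis. Dots are replicates coloured by region, open dots are replicates of number 1, and the cross is the fitted mean with its SE. The open dots of Rab5a (373) lie between -0.08 and 0.13 and its filled dots between 0.43 and 0.80.

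Among the Rab GTPases, Rab5a stood highest. Rab5a governs the fusion of early endosomes and the first step after endocytosis. Its probe 373 read 0.13, 0.43, 0.72 and 0.67 in cortex, -0.08, 0.71 and 0.80 in hippocampus, -0.02, 0.73 and 0.80 in cerebellum, and -0.01, 0.75 and 0.53 in brain stem-diencephalon, in the order of the replicate numbers. The replicates of number 1 were near 0 in each region, and the other 9 were all above them. The fitted mean was 0.45 ± 0.12 (SE, n = 13 replicates, adjusted p = 0.0283 by limma). The second Rab5a probe, 12725, was above 0 in 13 of 13 replicates, from 0.05 to 0.81 with a median of 0.28, and its mean was 0.36 ± 0.07 (adjusted p = 0.0099). Thus both probes of the gene passed, as did both probes of Arf1.

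Rab11a, which returns cargo from recycling endosomes to the cell surface, gave the lowest value of all members. Probe 12032 had a value in only 8 replicates, on 9 arrays: -0.78 and -0.61 in cortex, -0.25 and -0.70 in hippocampus, -0.71 and -0.81 in cerebellum, and -0.07 and -0.55 in brain stem-diencephalon. It lay below 0 in each of them, and its mean was -0.49 ± 0.07 (adjusted p = 0.0064 by limma). Probe 7582 was below 0 in 12 of 13 replicates, from -0.66 to 0.14 with a median of -0.39, and fell by 0.32 ± 0.07 (adjusted p = 0.0123). The third probe, 7720, stood apart from both, at 0.02 ± 0.06 with 5 of 12 replicates above 0. Rab11fip2, a Rab11 effector that links these endosomes to a myosin motor, rose by 0.38 ± 0.09 (n = 11, adjusted p = 0.0247), from -0.09 to 0.83 over the replicates. The 2 probes of Rab11b, the close relative of Rab11a, had means of 0.00 and -0.09.

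Promoters are shown for Rab5a, Arf1 and Rab11a, the members in which 2 probes were called in one direction. Each runs from 250 bases before to 50 bases after the annotated start in RefSeq's GRCm38.p6 tables, 5′ to 3′ on the gene's strand. Capitals mark exact matches, on either strand, to the E-box CACGTG, the CCAAT box (CCAAT), the GC box GGGCGG or the cAMP response element TGACGTCA, and no matches overlap in these windows.
Rab5a, chr17:53478984-53479283, plus strand: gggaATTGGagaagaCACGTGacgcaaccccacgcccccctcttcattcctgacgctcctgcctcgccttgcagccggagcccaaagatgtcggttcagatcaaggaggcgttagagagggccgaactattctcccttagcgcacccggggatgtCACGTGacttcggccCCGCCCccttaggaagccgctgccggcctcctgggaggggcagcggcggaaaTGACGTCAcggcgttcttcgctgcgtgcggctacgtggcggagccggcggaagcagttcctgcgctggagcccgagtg
Arf1, chr11:59228218-59228517, minus strand: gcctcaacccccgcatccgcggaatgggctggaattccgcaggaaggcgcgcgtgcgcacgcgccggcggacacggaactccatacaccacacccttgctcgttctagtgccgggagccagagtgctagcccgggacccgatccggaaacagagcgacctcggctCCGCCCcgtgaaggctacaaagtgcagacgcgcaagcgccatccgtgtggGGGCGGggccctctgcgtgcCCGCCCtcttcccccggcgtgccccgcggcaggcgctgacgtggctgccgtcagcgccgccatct
Rab11a, chr9:64737707-64738006, minus strand: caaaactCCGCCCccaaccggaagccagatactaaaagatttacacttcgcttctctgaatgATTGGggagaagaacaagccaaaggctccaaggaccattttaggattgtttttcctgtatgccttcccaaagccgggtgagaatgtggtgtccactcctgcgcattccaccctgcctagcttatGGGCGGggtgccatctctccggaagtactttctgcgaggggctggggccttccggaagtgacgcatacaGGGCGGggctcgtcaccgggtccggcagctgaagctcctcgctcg
The Rab5a window holds 2 E-boxes, 1 CCAAT, 1 GC box and 1 cAMP response element. The table gives a second start for Arf1, with a window at chr11:59228113-59228412 that overlaps the one shown and also holds 3 GC boxes. The Arf1 window shown holds 3 GC boxes, and the Rab11a window 3 GC boxes and 1 CCAAT. The table holds 98 promoters of 83 of the 103 member genes. CACGTG occurred in 16.3% of them, against 7.2% of all 32851 promoters and 7.8% of those of protein-coding genes. GGGCGG occurred in 71.4% against 35.7% and 46.2%, CCAAT in 36.7% against 37.4% and 38.2%, and TGACGTCA in 3.1% against 1.8% and 2.2%. A match is a run of letters and was not tested as a binding site.

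The other Rab genes that passed went both ways. Rab3b, of the Rab3 group that acts on synaptic and secretory vesicles, rose by 0.33 ± 0.09 (n = 13, adjusted p = 0.0357 by limma), with replicates from -0.26 to 0.74 and 10 of 13 above 0. Rab13, known from epithelial junctions and surface delivery, fell by 0.40 ± 0.09 (n = 12, adjusted p = 0.0143) and was below 0 in 12 of 12 replicates, from -0.88 to -0.05. Rab27a, which docks secretory granules and lysosome-related organelles, fell by 0.22 ± 0.06 (adjusted p = 0.0372), with 11 of 13 replicates below 0. Rab12, which acts in transport from recycling endosomes to lysosomes, fell in the mean on probe 1186, by 0.24 ± 0.06 (n = 10, adjusted p = 0.0254), while its second probe 9800 read 0.05 ± 0.05. In all, the 33 probes of Rab GTPases held 3 that rose and 5 that fell (24.2%, against 13.5% of all probes), and the 6 probes of Rab effectors and regulators held 1 that rose (16.7%). The median of both together was 0.02 over 39 probes, 23 of them above 0. Rab7 of late endosomes (0.05), Rab1a (0.14) and Rab1b (0.01) of ER to Golgi transport and Rab2a (-0.11) did not pass the threshold. Nor did Rab14 (0.09 and 0.12), Rab6a of the Golgi (0.21) and Rab8a (-0.06 and -0.02). The plain replicate mean of Rab1a lay below 0, at -0.12.

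Of the Arf family, both probes of Arf1 rose. Arf1 recruits COPI and the adaptors AP-1 and AP-3 to Golgi and endosome membranes. Probe 12687 was above 0 in 13 of 13 replicates, from 0.05 to 0.53 with a median of 0.33, and gave 0.28 ± 0.06 (adjusted p = 0.0127 by limma). Probe 11444 was above 0 in 13 of 13 as well, from 0.04 to 0.60 with a median of 0.31, and gave 0.26 ± 0.06 (adjusted p = 0.0181). These 2 probes were the closest of any called pair, 0.02 apart. Arl1, which recruits golgin tethers to the trans-Golgi network, rose on probe 6920 by 0.30 ± 0.07 (n = 10, adjusted p = 0.0252) and read 0.18 ± 0.08 on probe 11418, which did not pass (adjusted p = 0.14). Arf3, nearly identical to Arf1 in protein sequence, had the lowest mean of the family at -0.42 ± 0.16 and did not pass (n = 12, adjusted p = 0.098 by limma). Its replicates ran from -1.20 to 0.05, with 11 of 12 below 0. Whether cDNA probes of such close relatives bind each other's RNA was not tested. The 8 Arf and Arl probes had a median of 0.13, 6 of them above 0, with 3 called, all of these higher (37.5%, against 13.5% of all probes).

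The 32 Vps probes of 25 genes lay mostly above 0, 26 of them (81.2%) against 51.8% of all probes, with a median of 0.10. Only 3 passed, which is 9.38% against 13.5% of all probes. Vps50, the subunit that sets the endosomal recycling tether EARP apart from the Golgi tether GARP, rose by 0.39 ± 0.09 (n = 13, adjusted p = 0.0164 by limma). It read -0.13, 0.48, 0.92 and 0.60 in cortex, 0.34, 0.57 and 0.44 in hippocampus, -0.01, 0.53 and 0.56 in cerebellum, and 0.18, 0.10 and 0.36 in brain stem-diencephalon, so that 11 of 13 lay above 0. Vps51 and Vps54, the other measured subunits of these tethers, had means of 0.06 and 0.10 and did not pass.

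Vps41 and Vps11 belong to the HOPS tether, which joins late endosomes to lysosomes, and Vps11 also to CORVET on early endosomes. Vps41 rose on probe 13076 by 0.31 ± 0.07 (n = 13, adjusted p = 0.0117 by limma), reading 0.31, 0.59 and 0.73 in brain stem-diencephalon and 0.36, 0.32 and 0.66 in cerebellum, with 2 cortex values just below 0 (-0.01 and -0.09). Its probe 14696 read 0.20 ± 0.06 and its probe 11502 read -0.09 ± 0.07, and neither passed. Vps11 rose on probe 12140 by 0.20 ± 0.05 (n = 13, adjusted p = 0.0277), above 0 in 12 of 13 replicates, and read 0.18 ± 0.10 on probe 11569. Of the 11 probes of HOPS and CORVET subunits, 9 lay above 0 in the fitted mean with a median of 0.15, the others being Vps16 (-0.06) and the low probe of Vps41. In plain replicate means, Vps33a probes 9591 (-0.12) and 10798 (-0.07) lay below 0 and Vps16 (0.11) above it.

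The core of retromer carries cargo from endosomes back to the trans-Golgi network and the cell surface. It was measured by 5 probes, and none was called, against 13.5% of all probes. So few probes cannot show a lack of calls. All 5 lay above 0 in the mean: Vps26a at 0.26 ± 0.10 and 0.22 ± 0.08, Vps35 at 0.15 ± 0.11, Vps26b at 0.11 ± 0.06 and Vps29 at 0.05 ± 0.06. The lowest adjusted p among them was 0.09, for probe 12831 of Vps26a. The retriever subunits Vps26c and Vps35l read 0.10 and 0.11. The 7 probes of the ESCRT machinery, which sorts ubiquitinated cargo into multivesicular bodies, had a median of 0.04, from -0.23 (Vps37a, probe 2062) to 0.17 (Vps4a). None of these 7 was called, and the same limit holds for them. Vps13b, a lipid transfer protein, read 0.22. Vps72 carries the family's name but is a subunit of chromatin complexes, and it read -0.12.

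**Figure D2:**
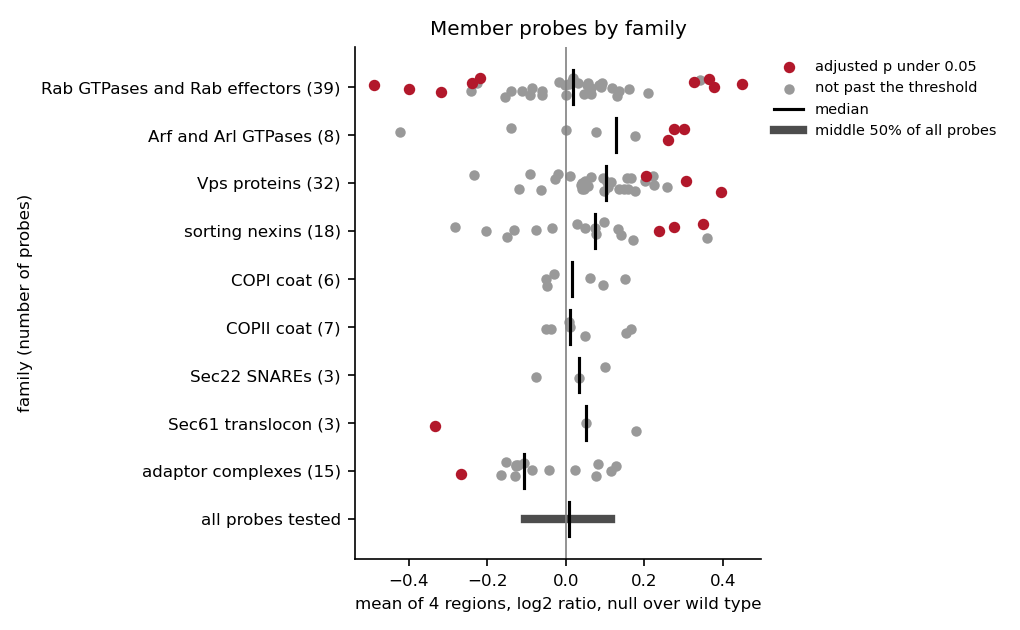
Fitted means over the 4 regions of the 131 member probes by family, as log2 ratios of null over wild type, with the number of probes of each family in brackets. Red dots passed an adjusted p of 0.05, short black lines are medians and the grey bar is the middle 50% of all 12337 probes. The Vps median stands at 0.10 and that of the adaptor complexes at -0.11.

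Sorting nexins held 3 called probes among 18 (16.7%, against 13.5% of all probes), all higher. Snx2, a partner of retromer that shapes tubules, rose on probe 13891 by 0.28 ± 0.05 (n = 12, adjusted p = 0.0074 by limma). It read 0.13, -0.08, 0.15 and -0.04 in cortex, 0.56, 0.27 and 0.40 in hippocampus, 0.32 and 0.38 in cerebellum, and 0.45, 0.14 and 0.24 in brain stem-diencephalon, and the cortex replicates were the lowest apart from 1 brain stem-diencephalon value of 0.14. Its probe 3499 read 0.10 ± 0.07. Snx10, linked to endosome and bone-resorbing osteoclast function, rose by 0.35 ± 0.10 (n = 12, adjusted p = 0.0402), with replicates from -0.09 to 0.77. Snx8 rose on probe 14048 by 0.24 ± 0.06 (n = 13, adjusted p = 0.0203), above 0 in 12 of 13, and read -0.03 ± 0.06 on probe 14033. Snx13 had the highest mean of the family, 0.36 ± 0.14, and Snx32 the lowest, -0.28 ± 0.12. Neither passed, and their replicates were wide, from -0.40 to 1.02 and from -0.87 to 0.44.

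The vesicle coats were measured by few probes, so a lack of calls there does not set them apart from the 13.5% of all probes called. None of the 6 COPI probes (Copa, Copb2, Cope, Copg2, Copz1) and none of the 7 COPII probes (Sec23a, Sec23b, Sec23ip, Sec24a, Sec24c, Sec24d) passed, with medians of 0.02 and 0.01 and ranges of -0.05 to 0.15 and -0.05 to 0.17. At an unadjusted p under 0.05 there were 0 COPI probes and 1 COPII probe, against 31.1% of all probes. Sec22a and Sec22b, SNAREs of ER to Golgi transport, lay between -0.08 and 0.10, with no call among these few probes either. Sec61a1, the pore of the ER translocon through which new proteins enter the secretory pathway, fell by 0.33 ± 0.08 (n = 13, adjusted p = 0.0149 by limma). It was below 0 in 12 of 13 replicates, from -0.68 to 0.12, and the value above 0 was cortex replicate 1. The related Sec61a2 and the gamma subunit Sec61g read 0.05 ± 0.05 and 0.18 ± 0.13.

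The adaptor complexes leaned the other way from the Vps proteins, with 10 of 15 probes below 0 and a median of -0.11. Of all probes, 51.8% lay above 0. Of these 15 probes only that of Ap3b2 passed, where 13.5% of all probes did. Ap3b2 is the neuronal beta subunit of AP-3, which serves synaptic vesicle and lysosome-related cargo. It fell by 0.27 ± 0.08 (n = 12, adjusted p = 0.0398 by limma), with 11 of 12 replicates below 0, from -0.50 to 0.14. The widely expressed counterpart Ap3b1 read 0.11 ± 0.09. Of the clathrin adaptors, both probes of Ap2m1, the cargo-binding mu subunit of AP-2, had fitted means of -0.13 and -0.12. Their plain replicate means were -0.01 (probe 1905) and 0.06 (probe 1906), so the plain values showed no fall. The fitted mean of Ap2s1 was -0.13, while that of Ap2b1 was 0.13. Of AP-1, 4 of 6 probes lay below 0, from -0.15 (Ap1s1) to 0.08 (Ap1s2).

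Of the 103 genes, 23 had 2 or 3 member probes, and these served as a check of one probe against another. In 13 genes the probes had one sign in the mean and in 10 they had both, with a median gap of 0.10 between the highest and lowest probe of a gene. The largest gap, 0.50, was in Rab11a, and the next were Vps41 (0.40), Vps37a (0.37), Rab12 (0.29) and Snx8 (0.27). Every probe was called in Rab5a and Arf1, some but not every probe in 7 genes (Rab11a, Rab12, Vps41, Vps11, Snx2, Snx8, Arl1), and none in 14. Which part of each transcript a probe covers, and whether 2 probes overlap, was not analysed here.

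**Figure D3:**
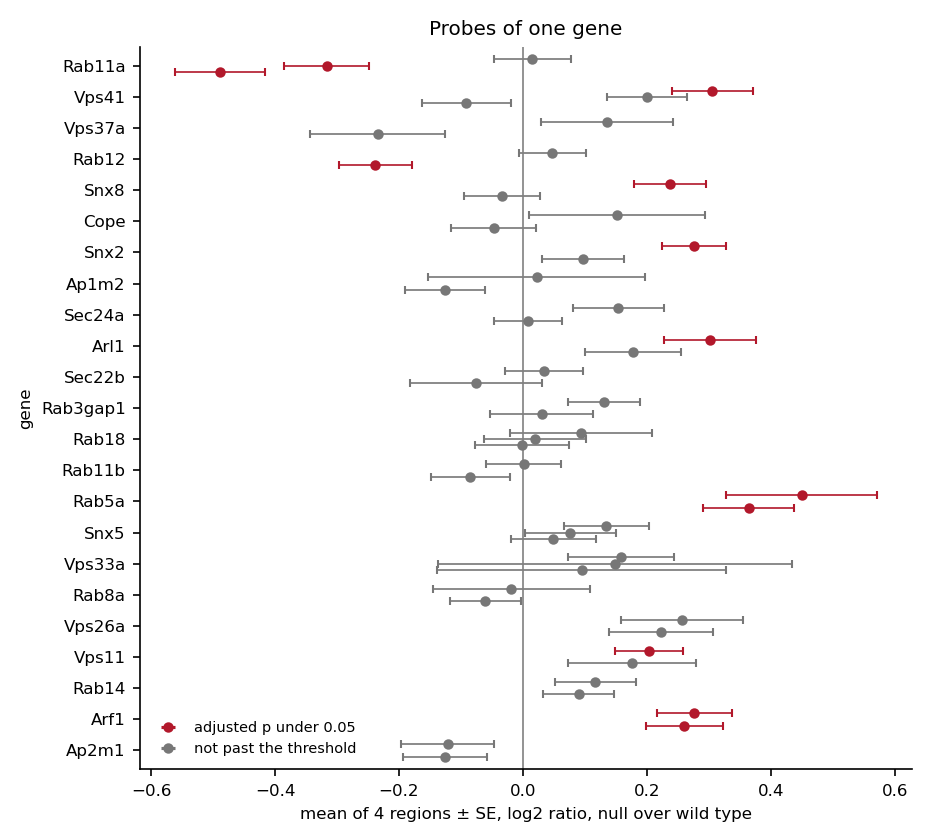
Fitted means with SE over the 4 regions, as log2 ratios of null over wild type, for the 23 genes with 2 or 3 member probes, ordered by the gap between probes with the widest at the top. Red points passed an adjusted p of 0.05. The 3 probes of Rab11a lie at -0.49, -0.32 and 0.02, and the 2 of Arf1 at 0.28 and 0.26.

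The replicates of number 1 were set beside the others for each member, as values with no test. Over all 131 members the median size of the mean was 0.110 over the replicates of number 1 and 0.116 over the others. The first is a mean of at most 4 replicates and the second of at most 9. A mean of fewer values scatters more, so neither these sizes nor the counts closer to 0 compare like with like. Probes called on a mean of all replicates had to be large in most of them, so nothing is read from how number 1 compares within the called probes. The mean lay closer to 0 over number 1 than over the others in 78 of the 131 members and in 18 of the 20 called. Rab5a probe 373 averaged 0.00 over number 1 and 0.68 over the others. Rab11fip2 averaged -0.01 and 0.43, Sec61a1 -0.03 and -0.38, and Rab13 -0.16 and -0.55. Snx2 probe 13891 (0.38 and 0.20) and Snx8 probe 14048 (0.27 and 0.19) went the other way. Arf3, which was not called, averaged -0.05 and -0.66. Number 1 is also where Eif2s3y lay below 0, and the part of either in the other was not tested. Without the number 1 arrays that had the null RNA in channel 1, 37 members were called and 31.1% of all probes, and the 20 were all among the 37.

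Within single regions few members passed in the fit with no term for the replicate number. Replicates of one number in different regions tended to deviate together, in 14 of 18 pairs at a correlation above 0.1. With the number as a fixed block, the members called were 27 in cortex (19.4% of all probes), 12 in cerebellum (5.32%), 10 in hippocampus (5.81%) and 4 in brain stem-diencephalon (2.73%), so the array's calls rose too. With it as a random block they were 7 in cortex (6.35%), 0 in cerebellum (1.18%), 1 in hippocampus (0.924%) and 1 in brain stem-diencephalon (0.381%). The values that follow are without a block. In cortex 2 members passed, both lower, against 2.33% of all probes called there and 1.35% called lower. Rab13 read -0.28, -0.82, -0.55 and -0.88 there and fell by 0.64 ± 0.12 (adjusted p = 0.0316 by limma), and Rab11a probe 12032, with 2 values, fell by 0.70 ± 0.13 (adjusted p = 0.0388). Scaling the arrays to one spread ended both calls (adjusted p = 0.0915 and 0.104), as did a variance trend (0.0673 and 0.086) and leaving out cortex replicate 2, 3 or 4 or cerebellum replicate 2 (0.0585 to 0.607 and 0.0685 to 0.545). Over all replicates left out in turn, the Rab13 call was lost in 4 of 13 fits and that of Rab11a in 8. Without cortex replicate 4 the value of Rab13 was -0.33. Without cortex replicate 1, 18 members were called in cortex, and 15.8% of all probes.

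In brain stem-diencephalon 1 member passed and fell, against 0.292% of all probes called there and 0.267% called lower. It was Rab12, whose probe 1186 read -0.58, -0.78 and -1.03 and fell by 0.63 ± 0.10 (adjusted p = 0.0324 by limma). The same probe read -0.09, -0.10 and 0.39 in cortex, 0.07 and -0.12 in hippocampus, and -0.53 and -0.61 in cerebellum. The values of cortex and brain stem-diencephalon did not overlap. Because the probe was picked by its call, nothing is read from that gap. The second probe, 9800, read 0.12, 0.39 and 0.27 in brain stem-diencephalon, above 0 where the first was below. Averaging the 2 probes ended the call (adjusted p = 0.342), as did a variance trend (0.173) and leaving out any 1 of 10 of the 13 replicates (0.0571 to 0.251). In hippocampus and in cerebellum 0 members passed limma's test, against 0.381% of all probes in each, with 19 in hippocampus (14.5%, against 13.7% of all) and 25 in cerebellum (19.1%, against 14.5%) at an unadjusted p under 0.05.

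The share of a family above 0 varied between regions, beside at most 51.6% of all probes above 0 in any region. These differences between regions were not tested, and probes of one gene were counted separately. By region, the members' median SE ran from 0.109 to 0.135, and the median size of their ratios from 0.110 to 0.155. Of the 32 Vps probes, the cortex had 20 above 0, the hippocampus 26, the cerebellum 24 and the brain stem-diencephalon 27. Of the 15 adaptor probes, the counts above 0 were 4, 8, 5 and 5 in the same order, so more than 50% lay above 0 in hippocampus alone. Of the 39 probes of Rab GTPases and their effectors, 16 lay above 0 in cerebellum, 22 in hippocampus and 25 each in cortex and brain stem-diencephalon, so that this family was below 50% in cerebellum. COPI had 3, 2, 4 and 5 of 6 probes above 0 in the order given for the Vps probes, and COPII 5, 5, 5 and 3 of 7. The 3 Sec22 probes had 2 above 0 except in brain stem-diencephalon with 1, and the 3 Sec61 probes had 2 in hippocampus and brain stem-diencephalon and 1 in cortex and cerebellum. Retromer core probes had medians of 0.02, 0.07, 0.14 and 0.34 in that same order of regions. Over all members, 58 (44.3%) had one sign in the 4 regions, against 46.5% of all probes.

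The difference between regions was tested itself, with an F test over the 4 regions and with the 6 pairwise differences. No member passed the F test, where 0.00811% of all probes did, and 6 members (4.58%, against 4.86% of all) had an unadjusted p under 0.05, the lowest adjusted p being 0.618. No member passed a pairwise difference, where 0.0405% of all probes did for cortex minus cerebellum, 0.0162% each for hippocampus minus cerebellum and for cerebellum minus brain stem-diencephalon, and 0% for the other 3 pairs. The 5 probes with the lowest F-test p were those of Snx5, Rab12, Ap1m2, Vps72 and Ap1b1. Snx5, a retromer partner like Snx2, read -0.62, -0.33 and -0.83 in cortex and 0.09, 0.71 and -0.04 in cerebellum on probe 945. Its cortex values all lay below those of cerebellum, but the probe was picked for its low F-test p, so nothing is read from that gap. The fitted difference was -0.85 ± 0.15 with an adjusted p of 0.111 by limma, and it passed with the replicate number as a fixed block (adjusted p = 0.00896, where 0.416% of all probes passed) or a random block (0.00922, 0.186%). Probes 4078 and 7623 of the same gene did not share that pattern, at 0.22 and 0.18 in cortex and 0.06 and 0.17 in cerebellum. Ap1m2 on probe 11496 read 0.17 in cortex and -0.34 in cerebellum (difference 0.51, adjusted p = 0.411), and Ap1b1 -0.23 and 0.27 (difference -0.50, adjusted p = 0.492). Vps72 read -0.30 in hippocampus and 0.08 in cortex.

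Other genes of the same pathways, listed by function, were set beside the members. The lists were made with earlier results of these data known, so their shares are no independent comparison. Of 171 listed genes, 106 were measured by 140 probes, of which 14 rose and 6 fell (14.3%, against 13.5% of all probes). SNAREs and fusion factors held 8 probes that rose and 1 that fell among 24 (37.5%). The plasma membrane SNARE Stx3 rose by 0.83 and 0.32 on its 2 probes, Nsf, the ATPase that takes SNARE complexes apart, by 0.36 and 0.34, and the Golgi SNARE Gosr2 by 0.35 and 0.26, while Stx4a fell by 0.32. The median of these 24 probes was 0.00. Eea1, the early endosome tether that binds Rab5, rose by 0.32, Gdi2, which extracts Rab proteins from membranes, by 0.35, the ER to Golgi tether Uso1 by 0.43, and Synj1, which uncoats endocytic vesicles, by 0.33. Clathrin light chain Cltb fell by 0.31, the Golgi adaptor Gga1 by 0.36, the Arf-binding Arfip1 by 0.36, the cargo receptor Tmed9 by 0.33 and dynamin Dnm2 by 0.20. In the ER translocation list, where Sec61a1 belongs by function, 1 of 21 probes passed, Ssr3, which rose by 0.46.

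**Figure D4:**
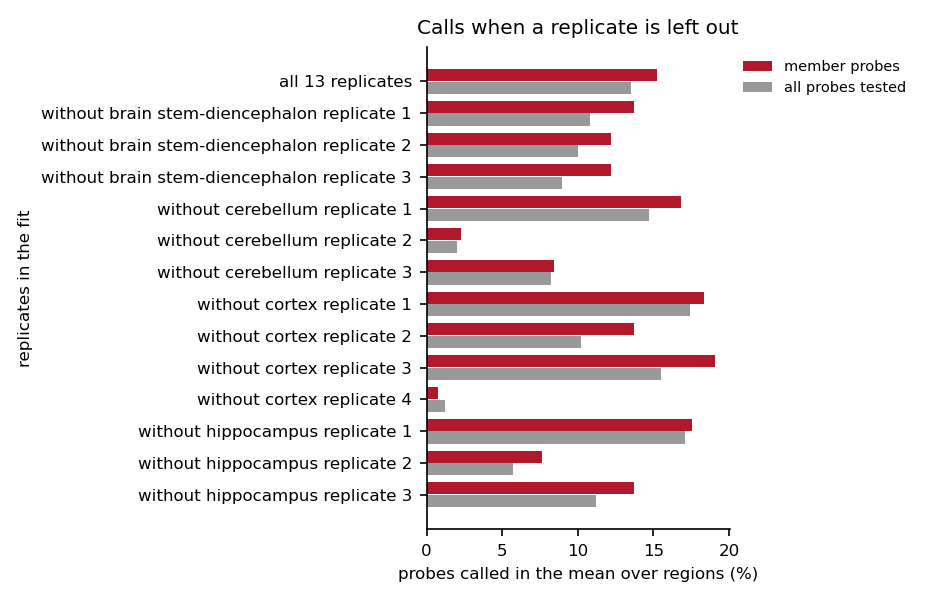
Share of probes called in the mean over regions, in percent, for the 131 member probes (red) and all probes tested (grey), with all 13 replicates and with each replicate left out in turn. Both shares are lowest without cortex replicate 4, with 1 member and 1.23% of all probes, and without cerebellum replicate 2, with 3 members and 2.04%.

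The plot of calls by replicate left out shows that the members and the array moved together. The count of members called ran from 1 to 25 over the 13 fits, the highest of them without cortex replicate 3, where 15.5% of all probes were called. Without hippocampus replicate 2 there were 10 and 5.74% of all probes, and without cerebellum replicate 3 there were 11 and 8.24%.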

How the data were processed

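The arrays compared 2 channels, and the authors deposited 1 log ratio per probe and array, taken here as log2; the sources used here do not give the background correction, the normalization or the base of the log. Array medians lay between 0.00862 and 0.0609, and 6793 to 13963 probes had a value on an array. Channel intensities were not used here. Precision is limited by the number of arrays. Gene symbols came from GEO's platform annotation (9604 probes with a single symbol, 213 with several, 5428 with none), and the Entrez IDs of all 131 member probes were found in the RefSeq table of GRCm38.p6.

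Swapped arrays were multiplied by -1, each array was centred on its median, and arrays of one region and number were averaged. For each probe a linear model held a term per region and a dye term (1 for null RNA in channel 1, -1 in channel 2, averaged per replicate), so that fitted ratios stand at a balance of both orientations and can differ from plain replicate means. The test was limma's moderated one (version 3.58.1, run in R 4.3.3), with 5.87 prior degrees of freedom and 8 residual ones for a complete probe, 3 or more for a member, and p-values were adjusted by Benjamini-Hochberg over all 12337 probes. A probe enters a fit with the replicates in which it has a value. Replicates of one number in different regions entered the main fit as independent. Every ratio was tested against 0. The wild-type pool was the sole control, so variation among wild-type mice does not enter. The method was tested on simulated data with independent errors on every array, so correlation between replicates of one number was not part of that test. The mutated gene itself is not reported here. The members and lists were chosen with earlier results of these data known.

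Probes were named by a rule: up to 10 highest and 10 lowest called with one sign in all regions, the calls of each region, the 5 smallest p of the F test, the ends of each family, every gene with several probes, and up to 5 called each way among other trafficking genes. Genes named beyond it were chosen after their values were seen. The alternatives tried were the repeated array kept in both regions, no centring, arrays scaled to one spread, a stricter and no filter on empty values, probes of a gene averaged, a variance trend with robust moderation, no dye term, no channel 1 arrays of number 1, each replicate left out, and the replicate number as a fixed or random block.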

Additional observations from a re-analysis of the deposited data

Results flagged for a closer look

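In 6 pairs of regions, every replicate of a named member probe lay above 0 in one region and below 0 in the other. These are 1.43% of the 420 region pairs of the 70 named probes, against 2.08% of the region pairs of all probes tested. None of these differences passed limma's test of the difference (adjusted p from 0.783 to 0.999). Rab12 probe 9800 gave 2 of them: cortex minus cerebellum was 0.275, and cerebellum minus brain stem-diencephalon was -0.326. Ap2b1, a subunit of the endocytic adaptor AP-2, gave hippocampus minus brain stem-diencephalon of 0.476, with 2 replicates in hippocampus (0.29 and 0.48) and 3 in brain stem-diencephalon (-0.30, -0.21 and -0.11). Cope of the COPI coat gave cerebellum minus brain stem-diencephalon of -0.232 on probe 9343. Rab18, known from lipid droplets and the ER, gave hippocampus minus cerebellum of 0.243 on probe 10772, and Rab8a, of transport to the cell surface, -0.294 on probe 14989. Among the 51 named probes with 4 cortex replicates, none had a cortex replicate that lay apart from the others by Dixon's criterion. With 4 values this criterion can find only an extreme outlier, so no conclusion is drawn about any cortex replicate.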

How the results depend on the processing

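The members called in the mean were 20 probes, of 17 genes. With probes of a gene averaged the count is of genes, and it was 12 (13.2% of all units so averaged). Counted as probes, it was 31 with no dye term (24.7% of all probes), 37 without the channel 1 arrays of number 1 (31.1%), and 1 to 25 with a replicate left out. It was 17 with arrays scaled (10.2%), 19 with a variance trend (11.5%), 24 (21.1% of all) with the repeated array kept, and 20 with no centring or either other filter. The stricter filter left Rab11a probe 12032 and Rab12 probe 1186 untested. The other 18 of the 20 stayed called under it, so its count of 20 includes other probes. In cortex the count (2) was 0 with arrays scaled (0.138% of all) or a variance trend (0.0243%). There it was 1 with probes averaged or the stricter filter, under which Rab11a probe 12032 was not tested. It was 3 with no dye term, 21 without the channel 1 arrays of number 1 (18.8%), and 0 to 18 with a replicate left out. In hippocampus (0) it was 7 without the channel 1 arrays of number 1 (3.33%), and in cerebellum (0) 3 with the repeated array (2.25%) and 2 with no dye term (1.43%). In brain stem-diencephalon (1) it was 0 with probes averaged or a variance trend, 2 with no dye term, and 0 to 1 with a replicate left out. It was also 0 there with the stricter filter, which left Rab12 probe 1186 untested. The mean of Rab11a probe 7720 was -0.25 with the 3 probes of the gene averaged, against 0.02 on its own, by the construction of that setting. The cause of the other shifts was not tested. With the replicate number as a fixed block, the counts were 34 in the mean (26.6% of all probes), 27 in cortex (19.4%), 10 in hippocampus (5.81%), 12 in cerebellum (5.32%), 4 in brain stem-diencephalon (2.73%), 1 by the F test (0.228%) and 1 by pairwise differences (Snx5, cortex minus cerebellum, 0.416%). With it as a random block (correlation 0.321) they were 15 (7.73%), 7 (6.35%), 1 (0.924%), 0 (1.18%), 1 (0.381%), 0 (0.0892%) and 1 (0.186%) in the same order. The main fit did not pair samples by number, though same-numbered replicates of different regions correlated at -0.0511 to 0.755 (median 0.394). Of these 18 pairs 14 lay above 0.1, and the median for different numbers was -0.155. The main fit thus treats replicates that tend to deviate together as independent, and its adjusted p-values do not allow for that. The median SE of the members' means was 0.0725 in it, 0.0838 with the random block and 0.0621 with the fixed block.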
